A study of Mus musculus with 22 samples.

Results

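A set of 10 genes of hepatic stellate cell activation and of extracellular matrix assembly were followed across 6 whole-liver RNA libraries. They are Acta2, Tagln, Lox, Sparc, Timp1, Pdgfrb, Des, Lrat, Eln and Mmp2, a list set by name and not by a measured value, and they make up 10 of the 24786 genes of the liver table. All 10 reached 1 RPKM in at least 2 of the 6 libraries and so entered the tests, which covered 12231 genes. RPKM is a read count scaled to gene length and to the mapped reads of the library, so levels of different genes can be set side by side on that scale.

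The series comprises 22 mouse samples, and the livers used here are the 6 of the second batch. Group 1 is Aire+/+ without treatment. Group 2 is TG Aire-/- without treatment, which carries the transgene and lacks Aire, and group 3 is TG Aire-/- with CD8+ T cells depleted; the labels do not name the depleting agent or its timing. Each group has 2 libraries, and the labels give C57BL/6 and an age of 2 to 4 weeks for all of them. The series title names the double mutant dnTGFβRII Aire-/- and presents it as a model in which autoimmune hepatitis overlaps with primary biliary cholangitis, both immune diseases of the liver. dnTGFβRII encodes a dominant-negative type II receptor for TGF-β that Cd4 regulatory sequences direct to T cells, so the transgene itself is not directed to stellate cells. No second-batch liver carries the transgene alone or the Aire deletion alone, and their separate parts in a difference from Aire+/+ cannot be told apart. By the level of Xist against that of the Y-linked gene Ddx3y, the Aire+/+ and the TG Aire-/- group each held 1 female and 1 male liver, and the CD8-depleted group held 2 males. Nothing in the labels says that the replicates of a group were separate animals, so the p-values cover only how far these samples lie apart, which may in part be technical.

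Hepatic stellate cells lie between the sinusoidal endothelium and the hepatocytes and store retinyl esters when quiescent. In injured liver they lose these stores, take on a contractile myofibroblast form and lay down collagen and elastin, which lysyl oxidases then crosslink. Lrat makes the retinyl esters and marks quiescent cells. Des, an intermediate filament, and Pdgfrb, the receptor for the mitogen PDGF-BB, mark stellate cells, and Acta2 and Tagln are the smooth muscle actin and actin-binding protein of the contractile form. Lox is the crosslinking enzyme, Eln its elastic substrate, Sparc a collagen-binding matricellular protein, Mmp2 a gelatinase and Timp1 an inhibitor of matrix proteases.

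RefSeq promoter windows on GRCm38.p6 were at hand for 5 of the 10 genes (Acta2, Sparc, Timp1, Des and Lrat), and the 250 bases before each start were searched for the sites of the contractile programme. A CArG box, the site bound by serum response factor, was taken as CC, then 6 bases of A or T, then GG, and a CArG-like box allowed 1 of the 6 bases to be G or C. The looser form was chosen after the windows had been searched with the strict one, which had no match in the 5 windows and matched in 1.47% of 32851 promoter windows. The CArG-like box was found at 2 places in Acta2, at 1 in Lrat and nowhere in Sparc, Timp1 or Des, and 8.59% of all windows held one. CATTCC on either strand, the core of the MCAT element bound by TEAD factors, was found once each in Acta2, Timp1 and Lrat and in 12.6% of all windows. The windows of Acta2 (chr19:34255374-34255623, minus strand) and Lrat (chr3:82903975-82904224, minus strand) are shown 5′ to 3′ because the first of these genes moved among the most and the second among the least of the 10. Capitals mark the CArG-like boxes, at positions -84 to -75 and -34 to -25 of Acta2 and -223 to -214 of Lrat, counted from the RefSeq start. The GENCODE start of Acta2, at base 34255590, lies inside its window, so most of that window is within the GENCODE gene. The window of Sparc lies wholly within its GENCODE gene, which starts at base 55423183 on the minus strand.
Acta2: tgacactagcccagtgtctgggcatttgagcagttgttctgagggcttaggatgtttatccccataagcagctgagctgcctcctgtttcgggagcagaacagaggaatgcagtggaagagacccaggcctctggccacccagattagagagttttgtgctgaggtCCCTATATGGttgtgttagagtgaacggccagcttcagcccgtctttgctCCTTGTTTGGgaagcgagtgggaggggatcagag
Lrat: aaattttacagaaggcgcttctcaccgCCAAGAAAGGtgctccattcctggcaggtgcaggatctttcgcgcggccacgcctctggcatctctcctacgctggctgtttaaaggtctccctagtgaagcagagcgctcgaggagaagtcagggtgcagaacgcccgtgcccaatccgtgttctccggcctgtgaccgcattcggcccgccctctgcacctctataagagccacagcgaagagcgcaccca
A match describes these letters only, and binding was not measured.

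Depth, inferred from the spacing of low values, was 20300000 to 22750000 reads per liver library. Between 9761 and 12441 genes reached 1 RPKM in a library, and 23.2% to 35.1% of the summed RPKM came from the 20 genes with the highest values. Cd8a stood at 0.16 and 0.22 RPKM in Aire+/+, at 8.76 and 3.75 in TG Aire-/- and at 0 and 0.19 in the CD8-depleted livers, and Cd8b1 followed the same order. The hepatocyte genes taken as a check on the tissue summed to 26537 RPKM or more in each library. Levels were compared with limma on log2(RPKM + 1), with p-values adjusted by the Benjamini-Hochberg method over all 12231 genes and a threshold of 0.05. Differences are on that log2 scale, which understates the change of genes with low levels.

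In the TG Aire-/- livers 7 of the 10 genes were higher than in Aire+/+: Acta2, Tagln, Lox, Sparc, Timp1, Pdgfrb and Des. Eln, Mmp2 and Lrat did not pass. Among all genes tested 37.3% were called in this comparison, 31.8% as higher and 5.5% as lower. The 10 genes had a median difference of 1.87 on the log2 scale, against 0.53 for all genes tested. Without Aire+/+ replicate 1, or without TG Aire-/- replicate 2, 4 of the 10 were called. In 9 of the 10 the groups did not overlap, as in 78.3% of all genes (63% with TG Aire-/- higher and 15.4% with it lower). In whole-liver RNA, more cells of a type and more RNA per cell cannot be told apart. Scaling the libraries to a common median ratio set that overall median near 0 and changed the split of called genes from 3892 higher and 673 lower to 1933 and 1482. Quantile normalization gave 1630 higher and 1497 lower. Under the first scaling 7 of the 10 were higher and Mmp2 was called lower, and under the second Timp1 and Des were not called and Mmp2 was lower.

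**Figure D1:**
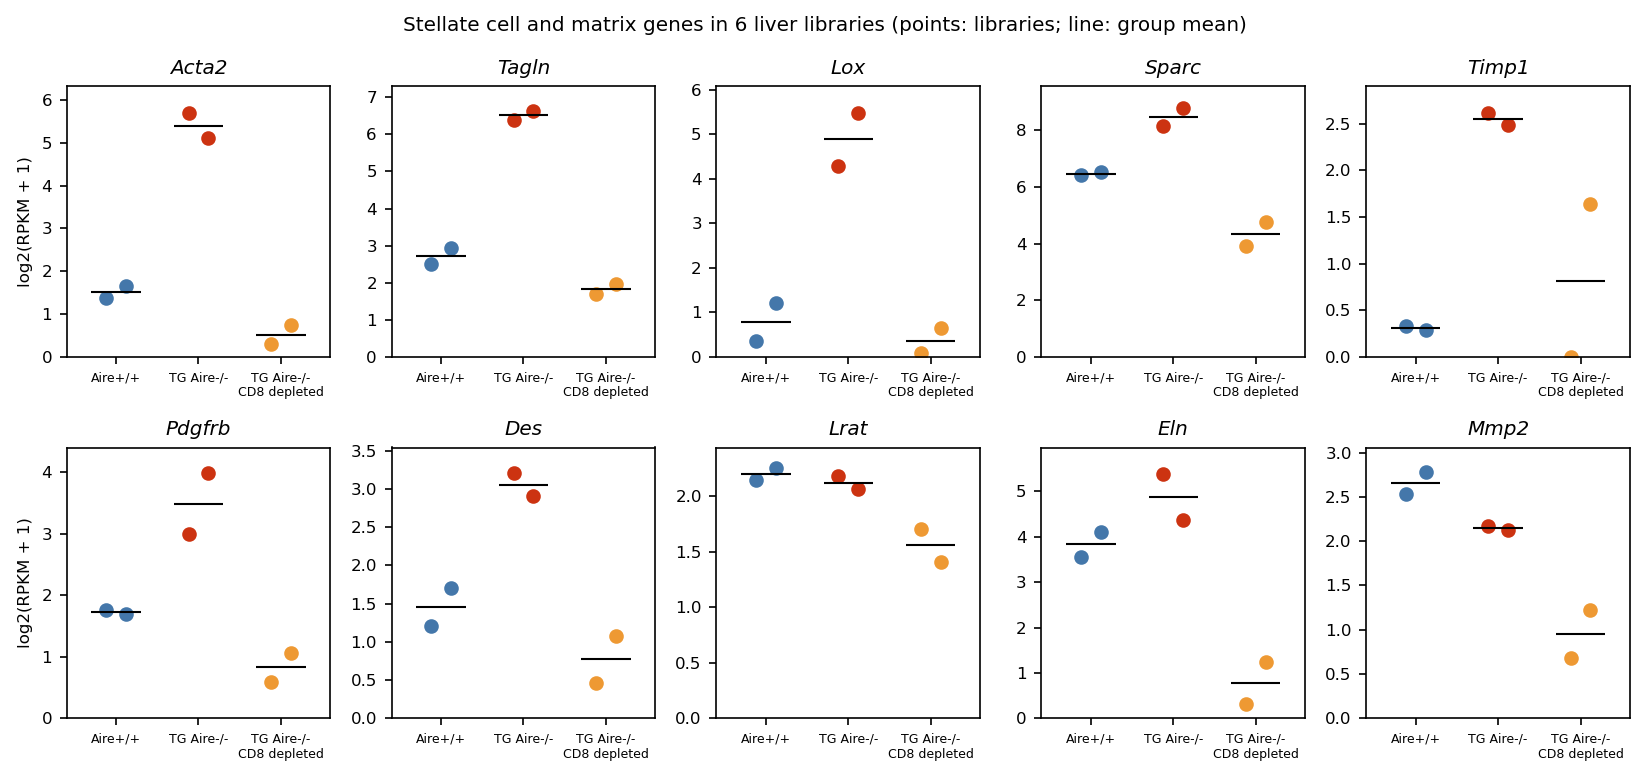
Level of each of the 10 genes in the 6 liver libraries, as log2(RPKM + 1) on the vertical axis, with 1 point per library and a line at each group mean. Both TG Aire-/- points lie above all others for every gene except Lrat and Mmp2, and for every gene but Lox and Timp1 both CD8-depleted points lie below all others.

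The contractile genes Acta2 and Tagln were, with Lox, the 3 of the 10 with the largest differences in both comparisons with TG Aire-/-. Acta2 (GRCm38 chromosome 19, 34241090 to 34255590, minus strand) stood at 1.59 and 2.17 RPKM in Aire+/+, at 50.9 and 33.5 in TG Aire-/- and at 0.228 and 0.676 in the CD8-depleted livers. The 3 groups did not overlap, and the lowest TG Aire-/- library lay far above the highest of the other 4. Acta2 rose by 3.88 ± 0.31 (SE) in TG Aire-/- over Aire+/+ (limma, adjusted p = 0.00148), a ratio of mean RPKM of 22.5, and this was rank 68 of the 12231 differences. Between TG Aire-/- and CD8-depleted livers it fell by 4.88 ± 0.31 (adjusted p = 0.000619), with mean RPKM 93.4 times lower. In mean RPKM ± SD (n = 2), the levels were 1.88 ± 0.407, 42.2 ± 12.3 and 0.452 ± 0.317.

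Tagln (chromosome 9, 45929619 to 45936058, minus strand) gave 4.66 and 6.70 RPKM in Aire+/+, 82.9 and 99.0 in TG Aire-/-, and 2.23 and 2.91 in CD8-depleted livers. Again no group overlapped another, and the 2 libraries of each group lay within 1.44-fold of each other, against up to 2.97-fold for Acta2. The rise was 3.79 ± 0.28 (limma, adjusted p = 0.00142) and the fall with depletion 4.69 ± 0.28 (adjusted p = 0.000559). The Tagln locus is shared: 62.4% of its exonic bases lie opposite Gm48529, for which the table has no value, and 5.43% opposite Pcsk7, which held 3.97 to 5.77 RPKM in liver. The strand setting of the counting is not given in the sources used here, so reads of these antisense partners cannot be told apart from those of Tagln.

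Other smooth muscle and cytoskeletal genes gave 12 of 14 tested higher in TG Aire-/-, with a median of 2.02, where 31.8% of all genes were called higher. Among the 14, Actg2, Lmod1 and Myh11 reached 1 RPKM only in the TG Aire-/- libraries and entered the tests through that group. Myl9, the regulatory light chain of smooth muscle myosin, rose by 2.38, from 5.95 and 6.57 RPKM to 42.5 and 31.8. The tropomyosins Tpm2 and Tpm1 rose by 2.11 and 2.17, and the calponin Cnn2 by 2.86. In CD8-depleted livers 12 of the 14 were lower than in TG Aire-/-, with a median of -2.49, and Myl9 fell by 4.18. Without TG Aire-/- replicate 2 the counts were 7 higher and 7 lower. Of the skeletal muscle markers, Ckm did not exceed 0.124 RPKM and Myh4 was listed at 0 in every liver, while the skeletal actin Acta1 stood at 1.71 and 8.03 RPKM in TG Aire-/- and at no more than 0.0912 elsewhere. Acta1, the 1 of the 10 skeletal muscle genes that entered the tests, rose by 2.26 and fell by 2.22 with depletion. The fall was not called without CD8-depleted replicate 1 (adjusted p = 0.0662), and without either TG Aire-/- library the gene fell under the filter on low values.

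Lox (chromosome 18, 52516067 to 52529867, minus strand) measured 0.272 and 1.33 RPKM in Aire+/+, 18.6 and 43.3 in TG Aire-/-, and 0.0549 and 0.570 in CD8-depleted livers. Its replicates differed by 4.87-fold in Aire+/+ and 2.32-fold in TG Aire-/-, more than for the other 9 genes there, and by 10.4-fold in the CD8-depleted pair, where the lower value stands for about 5.80 reads. The TG Aire-/- libraries nevertheless lay clear of the other 4, while Aire+/+ and CD8-depleted livers overlapped. Lox rose by 4.10 ± 0.47 (limma, adjusted p = 0.00209), rank 54 of 12231, and fell by 4.52 ± 0.47 with depletion (adjusted p = 0.00186).

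Among 15 tested genes for other crosslinking enzymes and collagen chaperones, 11 were higher in TG Aire-/-, with a median of 1.48. The lysyl oxidase relative Loxl2 rose by 4.09, from 3.74 and 4.53 RPKM to 47.2 and 157.5, a level above that of Lox itself in each TG Aire-/- library. Loxl1 rose by 1.31 and Loxl3 by 0.80, and both calls were lost without any 1 of the 4 libraries compared (adjusted p = 0.062 to 0.105 and 0.086 to 0.214) and under either scaling. Plod1, a lysyl hydroxylase that prepares collagen for crosslinking, rose by 2.18. In CD8-depleted livers 13 of the 15 were lower than in TG Aire-/-, and Loxl2 fell by 5.72, to 0.385 and 0.988 RPKM. Leaving out TG Aire-/- replicate 2 left 3 higher and 6 lower, leaving out either Aire+/+ library left 4 higher, leaving out TG Aire-/- replicate 1 left 5 higher and 9 lower, and median-ratio scaling gave 5 higher and 1 lower.

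Eln (chromosome 5, 134702593 to 134747323, minus strand) did not pass in the first comparison. It stood at 10.8 and 16.2 RPKM in Aire+/+, at 40.6 and 19.6 in TG Aire-/-, and at 0.244 and 1.35 in CD8-depleted livers. In the TG Aire-/- pair replicate 2 was at 0.482 of replicate 1, and this lower library lay just above the higher Aire+/+ library. The difference between these groups was 1.04 ± 0.45 (limma, adjusted p = 0.103). With depletion Eln fell by 4.10 ± 0.45 (adjusted p = 0.00203), and it was the 1 gene of the 10 called lower than in Aire+/+, with a difference of -3.06 ± 0.45 (limma, adjusted p = 0.0409). That last call was lost when any single library was left out, with adjusted p from 0.0772 to 0.216.

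Genes of the elastic fibre had 5 of 10 tested higher in TG Aire-/- and a median of 0.72 against 0.53 for all genes. The microfibril protein Fbn1 rose by 1.99 and Fbln5, which tethers elastin to cells, by 1.71. Fbln2 rose by 0.87, while the difference of Efemp1 was 0.28 and did not pass. Of the genes tested here, Fbln2 reached 1 RPKM only in the TG Aire-/- libraries and entered through that group. With depletion 7 of the 10 were lower, among them Fbn1 by -2.68 and Fbln5 by -2.36. The rise of Fbn1 was not called without Aire+/+ replicate 1 or TG Aire-/- replicate 2 (adjusted p = 0.0828 and 0.0668), nor that of Fbln2 without Aire+/+ replicate 1 or 2 (adjusted p = 0.246 and 0.0961). Without TG Aire-/- replicate 2 the counts were 2 higher and 5 lower, 2 and 3 were higher without Aire+/+ replicate 2 and 1, and quantile normalization gave 3 higher and 1 lower.

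Sparc (chromosome 11, 55394500 to 55423183, minus strand) was the most abundant of the 10 genes in every liver. Its levels were 83.9 and 91.4 RPKM in Aire+/+, 282.0 and 438.7 in TG Aire-/-, and 13.9 and 26.0 in CD8-depleted livers, 3 groups without overlap. It rose by 1.99 ± 0.38 (limma, adjusted p = 0.00766) and fell by 4.14 ± 0.38 with depletion (adjusted p = 0.00153). The rise is 4.11-fold in mean RPKM and the fall 18.1-fold, and the CD8-depleted mean was 4.39 times below that of Aire+/+, where the difference of -2.14 did not pass (adjusted p = 0.0769). The first rise lost its call without Aire+/+ replicate 1 (adjusted p = 0.0562) and without TG Aire-/- replicate 2 (adjusted p = 0.0632).

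Among other matricellular genes 7 of 13 tested were higher in TG Aire-/- and 8 were lower with depletion. Thbs1, thrombospondin 1, rose by 4.83 and fell by 5.11, and its relative Thbs2 rose by 1.64 and fell by 2.71. Tnc, tenascin C, rose by 2.00 and fell by 2.14, but it reached 1 RPKM only in the TG Aire-/- libraries and entered the tests through that group. Postn, periostin, rose by 1.99 and fell by 2.95, and its rise was not called without Aire+/+ replicate 1 or 2 or TG Aire-/- replicate 2 (adjusted p = 0.0956, 0.0733 and 0.0782). Of 10 collagen genes of scar and basement membrane, 9 were higher in TG Aire-/- and all 10 lower with depletion, with medians of 2.72 and -3.71. Col1a1 went from 6.39 and 13.4 RPKM in Aire+/+ to 98.6 and 124 in TG Aire-/- and to 0.428 and 4.08 in CD8-depleted livers. Col1a2, the second chain of type I collagen, rose by 2.35 and fell by 3.91, and Col5a1 rose by 1.45 and fell by 3.41. The rise of Col1a2 was not called without Aire+/+ replicate 1 or TG Aire-/- replicate 2 (adjusted p = 0.051 and 0.0632). That of Col5a1 was not called without Aire+/+ replicate 1 or 2 or TG Aire-/- replicate 2 (adjusted p = 0.116, 0.0801 and 0.0866) or under either scaling. Col3a1 did not pass in the first comparison (1.25, adjusted p = 0.123). Without TG Aire-/- replicate 2, 4 collagens and 3 matricellular genes were higher and 9 and 5 were lower, and without Aire+/+ replicate 1 it was 6 collagens that were higher.

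Timp1 and Mmp2 parted. Timp1 (chromosome X, 20870166 to 20874735, plus strand, inside Syn1 without shared exonic bases) stood at 0.260 and 0.219 RPKM in Aire+/+, which are about 4.97 and 3.96 reads, and at 5.10 and 4.59 in TG Aire-/-. In CD8-depleted livers it was at 0 in replicate 1 and at 2.10 in replicate 2, so that pair spans the Aire+/+ values, while both TG Aire-/- libraries lie above. A count of 0 in that library allows up to 0.153 RPKM, the level of 3 reads, a limit that covers counting error only. Timp1 rose by 2.24 ± 0.47 (limma, adjusted p = 0.0109) and fell by 1.73 ± 0.47 (adjusted p = 0.0258), in each case with the largest adjusted p of the called genes among the 10. The rise was not called without TG Aire-/- replicate 1 or 2 (adjusted p = 0.0547 and 0.0792). The fall was not called without TG Aire-/- replicate 1 or 2 or CD8-depleted replicate 1 (adjusted p = 0.104, 0.121 and 0.0536). Nor was the fall called with a pseudocount of 0.1 (adjusted p = 0.062), without the filter on low values (0.0778), with sex as a covariate (0.0569), after median-ratio scaling (0.096) or quantile normalization (0.138), or against a minimum change of 1 (0.512), so that it was called under 8 of 17 alternatives.

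Mmp2 (chromosome 8, 92827291 to 92853420, plus strand) had its highest levels in Aire+/+, at 4.77 and 5.87 RPKM, with 3.49 and 3.35 in TG Aire-/- and 0.602 and 1.33 in CD8-depleted livers. The groups did not overlap and ran in that order. The first step, -0.51 ± 0.27, did not pass (limma, adjusted p = 0.174), although it was called at -1.03 after median-ratio scaling (adjusted p = 0.0215) and at -1.20 after quantile normalization (adjusted p = 0.0133). The step from TG Aire-/- to CD8-depleted livers, -1.19 ± 0.27, was called (adjusted p = 0.0148). It was not called after either scaling (adjusted p = 0.0713 and 0.191), nor without TG Aire-/- replicate 2 or CD8-depleted replicate 1 (adjusted p = 0.0647 and 0.0651).

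Within a library the ratio of 2 genes does not depend on a factor by which the library was scaled. The log2 ratio of Timp1 to Mmp2 was -4.19 and -4.74 in Aire+/+, 0.55 and 0.45 in TG Aire-/- and 0.66 in the 1 CD8-depleted library with Timp1 reads. Inhibitor and protease therefore changed order between Aire+/+ and TG Aire-/- in both libraries of each group.

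**Figure D2:**
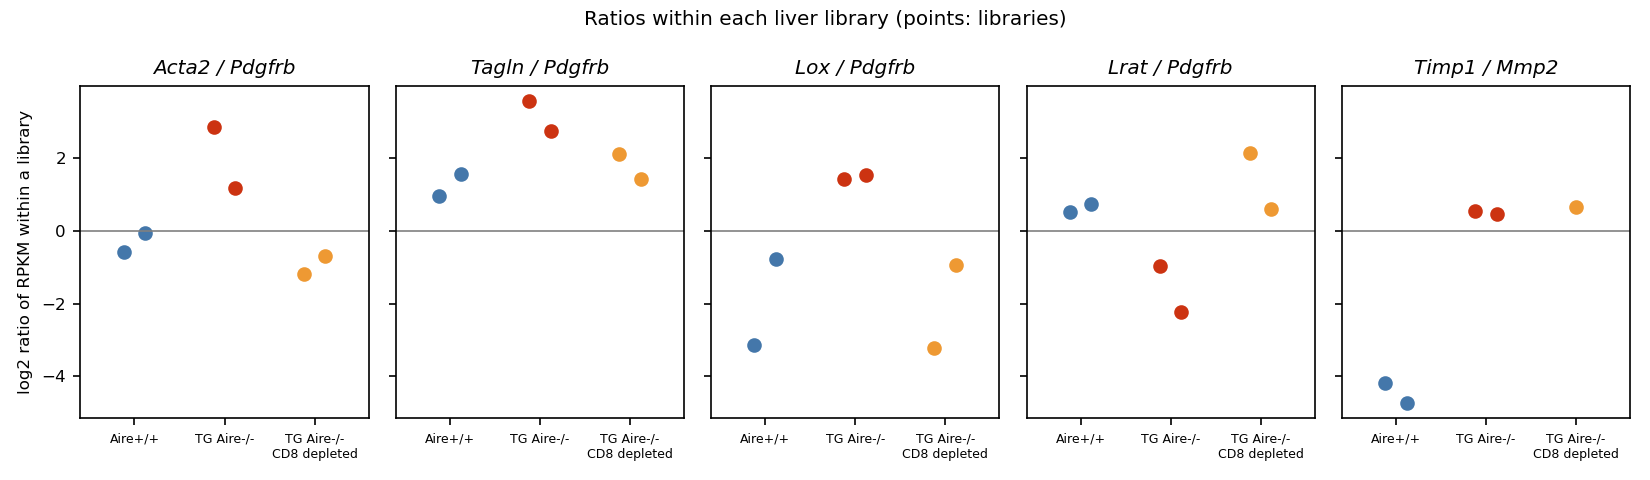
Log2 ratio of RPKM between 2 genes within the same liver library, 1 point per library, for Acta2, Tagln, Lox and Lrat over Pdgfrb and for Timp1 over Mmp2. TG Aire-/- points lie above the Aire+/+ points for all ratios but that of Lrat, which lies below, and Timp1 over Mmp2 has 1 CD8-depleted point because Timp1 is at 0 in the other library.

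Other matrix proteases and inhibitors had 12 of 16 tested higher in TG Aire-/- and a median of 2.01 (10 higher and 1 lower after median-ratio scaling). Mmp12, Mmp13, Mmp23, Adam12, Adamts5, Plau and Plat reached 1 RPKM only in the TG Aire-/- libraries. They entered the tests through the group where they were high, and the count and median of the list include them. Timp3 rose by 3.30, from 1.79 and 2.35 RPKM to 19.4 and 43.5, and the membrane-bound Mmp14, an activator of pro-Mmp2, rose by 1.37, a call lost without Aire+/+ replicate 2 or TG Aire-/- replicate 2 (adjusted p = 0.118 and 0.0525). Timp2 differed by 0.92 and narrowly did not pass (adjusted p = 0.0508). With depletion 12 were lower and Mmp7, matrilysin, was the 1 higher, by 2.11. Mmp7 was listed at 0 in both Aire+/+ livers, at 0.078 and 0.301 RPKM in TG Aire-/- and at 2.26 and 7.01 in CD8-depleted livers. Its call was lost without TG Aire-/- replicate 2 (adjusted p = 0.0569). Without TG Aire-/- replicate 2 the counts were 2 higher in the first comparison and 4 lower in the second, without replicate 1 they were 6 and 7, and without CD8-depleted replicate 1 they were 13 and 8; without Aire+/+ replicate 1, 7 were higher.

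Of the 2 mesenchymal markers, Pdgfrb (chromosome 18, 61045150 to 61085061, plus strand) stood at 2.40 and 2.26 RPKM in Aire+/+, 6.97 and 14.8 in TG Aire-/-, and 0.514 and 1.09 in CD8-depleted livers. The groups did not overlap, and the TG Aire-/- pair differed 2.13-fold. It rose by 1.76 ± 0.36 (limma, adjusted p = 0.0102) and fell by 2.66 ± 0.36 (adjusted p = 0.00292). The adjusted p of the rise was just above the threshold when Aire+/+ replicate 1 or 2 or TG Aire-/- replicate 2 was left out (adjusted p = 0.0543, 0.0586 and 0.0507), and so was not called there.

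Des (chromosome 1, 75360329 to 75368579, plus strand) stood at 1.31 and 2.26 RPKM, then 8.23 and 6.53, then 0.381 and 1.11 in the same order of groups. Here too every group was separate from the others. It rose by 1.60 ± 0.31 (limma, adjusted p = 0.00803) and fell by 2.29 ± 0.31 (adjusted p = 0.00286), and the rise was not called without Aire+/+ replicate 1 (adjusted p = 0.0756) or after quantile normalization (adjusted p = 0.0568).

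Set against Pdgfrb in the same library, Acta2 was 2.87 and 1.17 log2 units higher in TG Aire-/-, against -0.59 and -0.06 in Aire+/+ and -1.17 and -0.69 in CD8-depleted livers. Against Des the Acta2 ratio was 2.63 and 2.36 in TG Aire-/-, 0.28 and -0.06 in Aire+/+ and -0.74 and -0.71 with depletion. Both Acta2 ratios put every TG Aire-/- library above the other 4. Lox over Des gave 1.18 and 2.73 in TG Aire-/- and stayed between -2.80 and -0.77 elsewhere. Pdgfrb and Des are themselves expressed by more than 1 cell type of the liver.

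PDGF ligands and the second receptor were tested as 5 genes, of which 3 were higher in TG Aire-/- and 2 lower with depletion. Pdgfb, the ligand chain of Pdgfrb, rose by 2.47, from 0.549 and 0.670 RPKM to 4.98 and 12.2, and fell by 2.41. Pdgfa differed by 1.40 and -0.42 and passed in neither comparison. Its CD8-depleted libraries stood apart, at 0.645 and 14.2 RPKM, against 5.62 and 5.76 in TG Aire-/-, and the second difference was 1.18 without replicate 1 and -2.02 without replicate 2 of the depleted pair (adjusted p = 0.0425 and 0.00605). Pdgfc rose by 0.94 (adjusted p = 0.048), a call lost without Aire+/+ replicate 1 or 2 or TG Aire-/- replicate 2 (adjusted p = 0.111, 0.294 and 0.225) and under either scaling, and Pdgfd differed by 0.66 (adjusted p = 0.122). Leaving out either Aire+/+ library or TG Aire-/- replicate 2 left 1 of the 5 higher, and without that replicate or CD8-depleted replicate 1, 1 was lower.

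Lrat (chromosome 3, 82892579 to 82903973, minus strand) was the 1 gene of the 10 that passed in no comparison. Its levels were 3.42 and 3.78 RPKM in Aire+/+, 3.54 and 3.17 in TG Aire-/- and 2.25 and 1.66 in CD8-depleted livers. Aire+/+ and TG Aire-/- overlapped and both lay above the CD8-depleted pair. The differences were -0.08 ± 0.24 (limma, adjusted p = 0.815), -0.57 ± 0.24 (adjusted p = 0.101) and, from Aire+/+ to CD8-depleted, -0.65 ± 0.24 (adjusted p = 0.383). The second turned to 0.16 after quantile normalization. Relative to Pdgfrb, Lrat was lower in TG Aire-/- (-0.98 and -2.23) than in Aire+/+ (0.51 and 0.74) or CD8-depleted livers (2.13 and 0.61).

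Other genes of quiescent stellate cells were mixed. Of 14 tested, 4 were higher in TG Aire-/-, with a median of 0.45 beside the 0.53 of all genes, while median-ratio scaling gave 1 higher and 1 lower and quantile normalization gave 2 lower. Reln, reelin, differed by -0.30 between Aire+/+ and TG Aire-/- (adjusted p = 0.598) and fell by 1.47 with depletion (adjusted p = 0.0337). That fall was not called when any 1 of the libraries but TG Aire-/- replicate 1 was left out (adjusted p = 0.0503 to 0.107). Hgf differed by 0.81 in TG Aire-/- (adjusted p = 0.0771) and fell by 1.52 with depletion, a call lost without TG Aire-/- replicate 2. Ngfr, the low-affinity neurotrophin receptor, differed by -0.53 in TG Aire-/- (adjusted p = 0.159) and was called lower there under either scaling (-0.87 and -1.22). With depletion 10 of the 14 were lower. Without either Aire+/+ library none was higher, without TG Aire-/- replicate 2 it was 1 higher and 3 lower, and without CD8-depleted replicate 1 it was 5 lower.

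Retinoid handling genes had 1 of 11 tested higher and 2 lower in TG Aire-/- and a median of -0.18; after median-ratio scaling 4 were lower. Rdh10, a retinol dehydrogenase, fell by 0.92, a call that was lost without Aire+/+ replicate 1 or 2 or TG Aire-/- replicate 1, where the list had 0 lower, and 1 was lower without TG Aire-/- replicate 2. Rbp4, the plasma retinol carrier made by hepatocytes, differed by -0.78 and did not pass. Stra6l, a receptor for that carrier, differed by -0.90 (adjusted p = 0.075) and was called lower under either scaling (-1.52 and -1.36), and Rdh11, another retinol dehydrogenase, differed by 0.37 (adjusted p = 0.578), with the sign turned under both. With depletion 1 was higher and 2 were lower. The 1 that was higher, named after its values were seen, is Cyp26a1, a retinoic acid-degrading enzyme induced by retinoic acid, which was 3.31 above TG Aire-/- (adjusted p = 0.00153) and 3.18 above Aire+/+ (adjusted p = 0.00703).

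**Figure D3:**
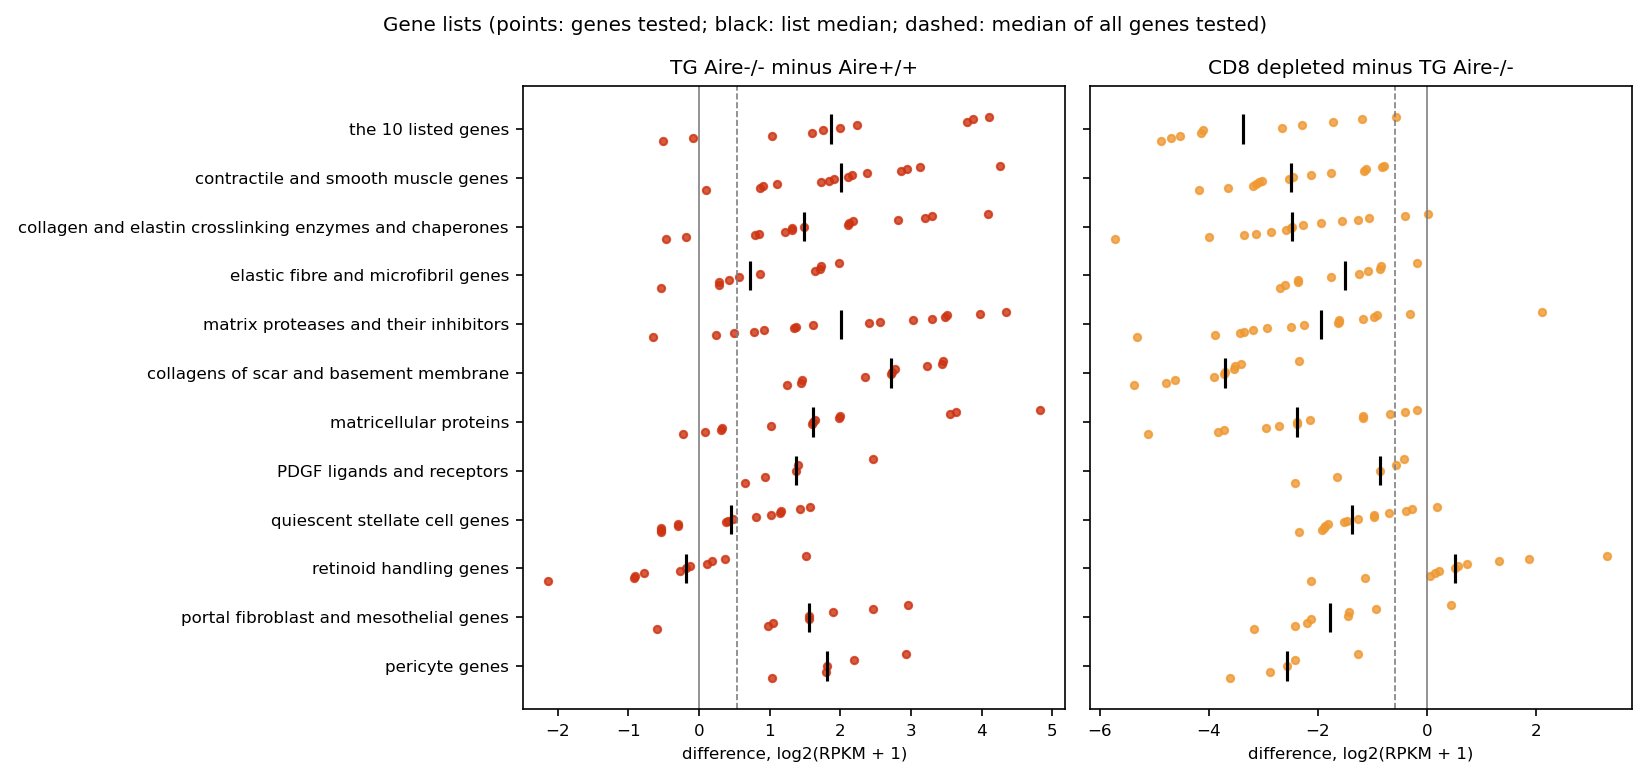
Differences of log2(RPKM + 1) for the 10 genes and for 11 lists of related genes, 1 point per tested gene, with TG Aire-/- minus Aire+/+ on the left and CD8-depleted minus TG Aire-/- on the right. Black bars are list medians and the dashed line is the median of all genes tested (0.53 and -0.58); collagens have the highest median on the left (2.72) and retinoid handling genes the lowest (-0.18).

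Comparing CD8-depleted with untreated TG Aire-/- livers, 9 of the 10 genes were lower and all 10 had groups that did not overlap. Lrat was the gene that did not pass. Among all genes tested 38% were called, 33.5% as lower and 4.49% as higher, and 70.7% had groups that did not overlap, 60.6% with the CD8-depleted pair lower and 10.1% with it higher. The median was -3.38 for the 10 genes and -0.58 for all genes. Median-ratio scaling changed the called genes from 549 higher and 4097 lower to 1198 and 1754, quantile normalization to 1217 and 1405, and both left 7 of the 10 genes lower, without Timp1 and Mmp2. This comparison and the one with Aire+/+ share the TG Aire-/- libraries, so that a high value in those libraries enters both.

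**Figure D4:**
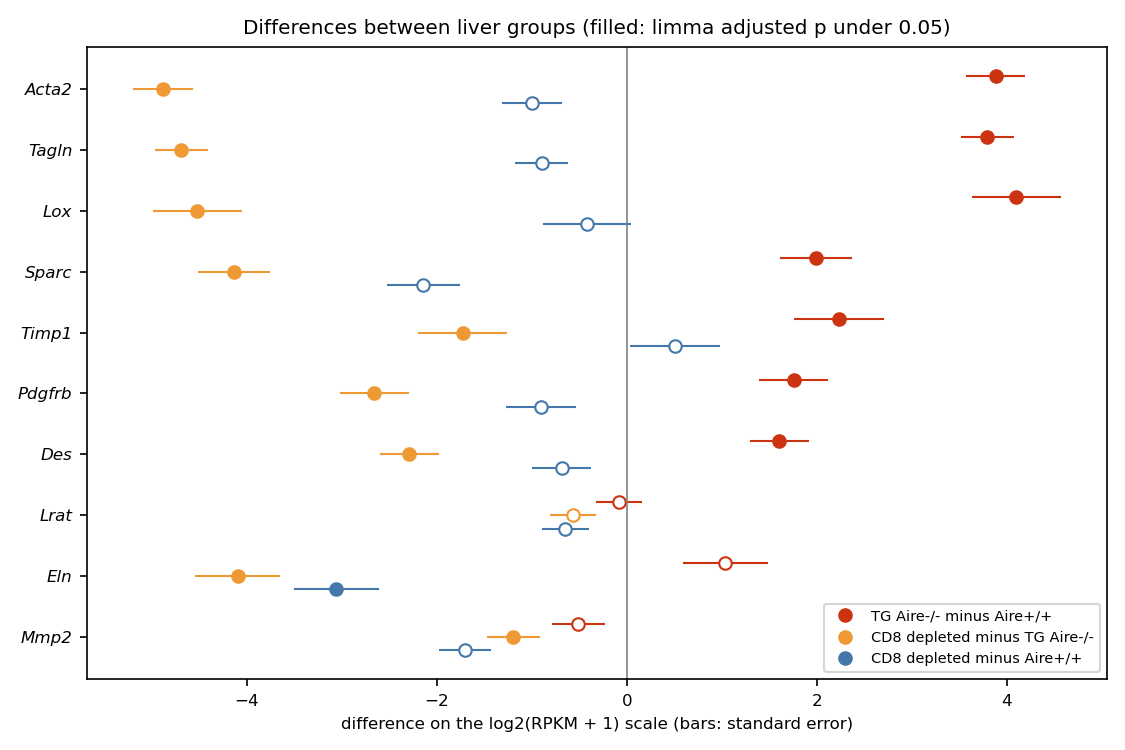
Difference of log2(RPKM + 1) for each of the 10 genes in the 3 comparisons, with bars of 1 standard error and filled points where the limma adjusted p was under 0.05. TG Aire-/- minus Aire+/+ has 7 filled points, all above 0, CD8-depleted minus TG Aire-/- has 9, all below 0, and CD8-depleted minus Aire+/+ has 1, Eln.

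Between CD8-depleted and Aire+/+ livers only Eln passed among the 10, where 0.548% of all genes were called, 0.327% as lower and 0.221% as higher. The median difference was -0.90, against -0.04 for all genes. By limma 7 of the 10 had an unadjusted p under 0.05, as did 1327 of the 12231 genes tested. Groups did not overlap for 8 of the 10, as for 49% of all genes (28.8% lower and 20.2% higher). Timp1, at 0.51, was the 1 gene with a difference above 0, and it rests on CD8-depleted replicate 2; without that library it was -0.31. Besides Eln and Sparc the furthest was Mmp2, at -1.70 ± 0.27 (limma, adjusted p = 0.0547). Over the 111 genes of 8 pathway lists, which leave out the quiescent stellate cell genes, 94 were tested and 2 were called: Myl9, lower by -1.80 (adjusted p = 0.0434), and Cyp26a1. The median over those 94 was -0.40 and 27 had an unadjusted p under 0.05. Of the 14 quiescent stellate cell genes tested, 0 were called by limma, 8 had an unadjusted p under 0.05, 13 had groups that did not overlap and the median was -0.79. The Myl9 call, like that of Eln, was lost when any 1 of the 6 libraries was left out, and that of Cyp26a1 without TG Aire-/- replicate 1 or 2 (adjusted p = 0.0615 and 0.0575); without either CD8-depleted library Cyp26a1 fell under the filter on low values and was not tested.

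Markers of development moved in that last comparison too. H19 stood at 487 and 644 RPKM in Aire+/+ and at 7.53 and 11.6 in CD8-depleted livers, Gpc3 at 14.2 and 13.5 against 0.279 and 0.106, and Igf2 at 3.29 and 8.39 against 0 and 0.043. These genes are known to fall in liver after birth, the labels give only the range of 2 to 4 weeks, and 2 of the 7 tested newborn liver genes (H19 and Gpc3) were called lower. Against untreated TG Aire-/- livers, 5 of the 7 were lower in the CD8-depleted livers, with a median of -4.18. There H19, Gpc3 and Igf2 differed by -4.60, -5.74 and -4.18. The part of age in the lower Eln, and in the 9 of the 10 genes that were lower with depletion, was not tested. In TG Aire-/- livers Afp stood at 523 and 742 RPKM, against 4.69 to 6.27 in Aire+/+.

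Markers of several other cell types were also higher in TG Aire-/-. The summed level of the 10 was 113 to 132 RPKM in Aire+/+, 502 to 667 in TG Aire-/- and 20.4 to 38.8 with depletion. Over the same groups 8 endothelial genes summed to 34.6 to 44.2, 205 to 385 and 31.4 to 36.3 RPKM, with 7 of 8 higher in TG Aire-/-. Pecam1, Cdh5, Kdr and Stab2 rose by 3.67, 3.08, 2.54 and 1.97, and the rise of Stab2 was not called without Aire+/+ replicate 2 (adjusted p = 0.0521). The 8 macrophage genes summed to 175 to 213, 1158 to 1320 and 167 to 460, with 7 of 8 higher. Adgre1, Csf1r and Cd68 rose by 2.03, 2.89 and 2.999, the last not without TG Aire-/- replicate 2 (adjusted p = 0.0898), while the Kupffer cell gene Clec4f differed by 0.33 (adjusted p = 0.667), with the sign turned after median-ratio scaling and without TG Aire-/- replicate 1. The T cell genes summed to 2.25 to 2.53, 30.0 to 50.2 and 5.03 to 9.39, with 7 of 7 tested higher, and the CD3 chains Cd3e, Cd3d and Cd3g rose by 2.42, 2.40 and 2.14. Hepatocyte genes summed to 62078 to 62670, 26537 to 39887 and 40594 to 72676, with 3 of 12 tested lower in TG Aire-/- and 1 lower without Aire+/+ replicate 2 or TG Aire-/- replicate 2. Ttr, transthyretin, fell by 1.66, a call lost without Aire+/+ replicate 1 or 2 or TG Aire-/- replicate 2 (adjusted p = 0.218, 0.194 and 0.121), and Alb, Apoa1 and Apob differed by -0.81, -0.97 and -0.45 and did not pass. The summed bile duct genes did not follow the 10 genes, but most of that sum was Spp1 in every library. Spp1 is also among the matricellular genes. It stood at 94.3 RPKM in CD8-depleted replicate 2 and at 70.7 in TG Aire-/- replicate 2, and a sum without it was not taken. The 7 cholangiocyte genes summed to 29.3 and 41.2 RPKM in Aire+/+, 56.6 and 103 in TG Aire-/- and 21.8 and 104 with depletion, where replicate 2 held the highest sum of the 6 libraries. Of 6 tested, 2 were higher in TG Aire-/- and 2 lower with depletion. The keratins Krt7 and Krt19 were higher by 1.17 and 2.17, and neither was called without Aire+/+ replicate 2 (adjusted p = 0.117 and 0.0911). Krt19 was also not called without Aire+/+ replicate 1 or TG Aire-/- replicate 2 (adjusted p = 0.112 and 0.155) or under either scaling, and Krt7 was not called after quantile normalization. Epcam and Sox9 differed by 0.50 and 0.71 and did not pass, with the sign of both turned after quantile normalization. Without TG Aire-/- replicate 2 the list gave 0 higher and 0 lower, and without CD8-depleted replicate 1 it gave 0 lower.

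Other mesenchymal cells could also hold the 10 genes. Pericyte genes were 5 of 5 tested higher in TG Aire-/- and 5 of 5 lower with depletion. Their sum was 11.9 to 12.4 RPKM in Aire+/+, 41.5 to 120 in TG Aire-/- and 5.97 to 6.56 with depletion. Of the 7 pericyte genes listed, Cspg4 and Higd1b did not exceed 0.0669 and 0.111 RPKM and were not tested. Notch3 reached 1 RPKM only in the TG Aire-/- libraries and entered the tests through that group. Mcam, an adhesion molecule of pericytes and endothelium, rose by 2.93, the potassium channel genes Kcnj8 and Abcc9 by 1.80 and 2.20, and Notch3 by 1.03. The call of Kcnj8 was lost when any 1 library but TG Aire-/- replicate 1 was left out (adjusted p = 0.0514 to 0.126), and Notch3 was not called without Aire+/+ replicate 1 or 2 (adjusted p = 0.106 and 0.0864). Of the 8 portal fibroblast and mesothelial genes tested 6 were higher, and their sums were 7.79 to 10.1, 43.2 to 46.8 and 4.71 to 12.4 RPKM. Among the 8, Msln, Upk1b and Gpm6a reached 1 RPKM only in the TG Aire-/- libraries. They entered the tests through that group, and the count includes them. Entpd2 differed by 0.98 and did not pass (adjusted p = 0.111), and Cd34 rose by 1.56, a call lost without Aire+/+ replicate 1 or TG Aire-/- replicate 2 (adjusted p = 0.0793 and 0.0758). Thy1, a portal fibroblast gene that T cells also express, rose by 2.96, and Dpt differed by -0.60 and did not pass (adjusted p = 0.282). Without TG Aire-/- replicate 2 the counts of higher genes were 2 for each of these lists, without TG Aire-/- replicate 1 the portal count was 3, and without either Aire+/+ library the pericyte count was 2. Quantile normalization gave 5 higher and 1 lower in the portal list.

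Immediate early genes, which respond quickly to stress, summed to 90.8 to 113 RPKM in Aire+/+, 181 to 741 in TG Aire-/- and 66.5 to 88.0 with depletion, and TG Aire-/- replicate 2 held the 741. Of 9 tested, 6 were called higher in TG Aire-/-, 2 without that library, 3 without Aire+/+ replicate 1 and 2 without Aire+/+ replicate 2. Fos, Jun, Junb and Egr1 rose by 3.39, 2.52, 2.67 and 1.52, and each of these calls was lost without Aire+/+ replicate 2 (adjusted p = 0.0558, 0.104, 0.1 and 0.234). Those of Jun, Junb and Egr1 were also lost without TG Aire-/- replicate 2 (adjusted p = 0.131, 0.0722 and 0.204), those of Fos, Junb and Egr1 without Aire+/+ replicate 1, and that of Egr1 without either CD8-depleted library.

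The lists for other tissues gave a mixed picture. Of the 7 adipocyte genes Adipoq and Lep were listed at 0 in every liver, while Cidec, a lipid droplet gene that hepatocytes can also express, stood at 0.712 and 0.483 RPKM in Aire+/+, 19.1 and 29.7 in TG Aire-/- and 0.410 and 1.79 with depletion. Cidec rose by 3.96 and fell by 3.65 (limma, adjusted p = 0.00184 and 0.00187). Plin4 and Pck1, the other 2 adipocyte genes tested, differed by -0.20 and -0.79 in TG Aire-/- and did not pass. Of the 10 gut and pancreas genes Prss2, Cpa1 and Pnlip were listed at 0 in every liver. The elastases Cela1 and Cela2a, however, stood at 2.95 to 5.71 and 0.647 to 2.24 RPKM over the 6 livers. In TG Aire-/- they differed by 0.22 and -0.62 and did not pass, though under either scaling Cela1 turned sign and Cela2a was called lower (-0.94 and -1.26). With depletion Cela2a rose by 0.71 (adjusted p = 0.0474), a call lost when any 1 library but TG Aire-/- replicate 1 was left out (adjusted p = 0.0824 to 0.169). Vil1, villin, rose by 1.04 and fell by 1.03, from no more than 0.0824 RPKM in Aire+/+ to 1.15 and 1.17 in TG Aire-/- and to no more than 0.119 with depletion. Its rise was not called without Aire+/+ replicate 2 (adjusted p = 0.0601), and without either TG Aire-/- library it fell under the filter. Fabp2 differed by -1.15 in TG Aire-/- and did not pass (adjusted p = 0.191). The part of any of these markers in the levels of the 10 genes was not tested.

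**Figure D5:**
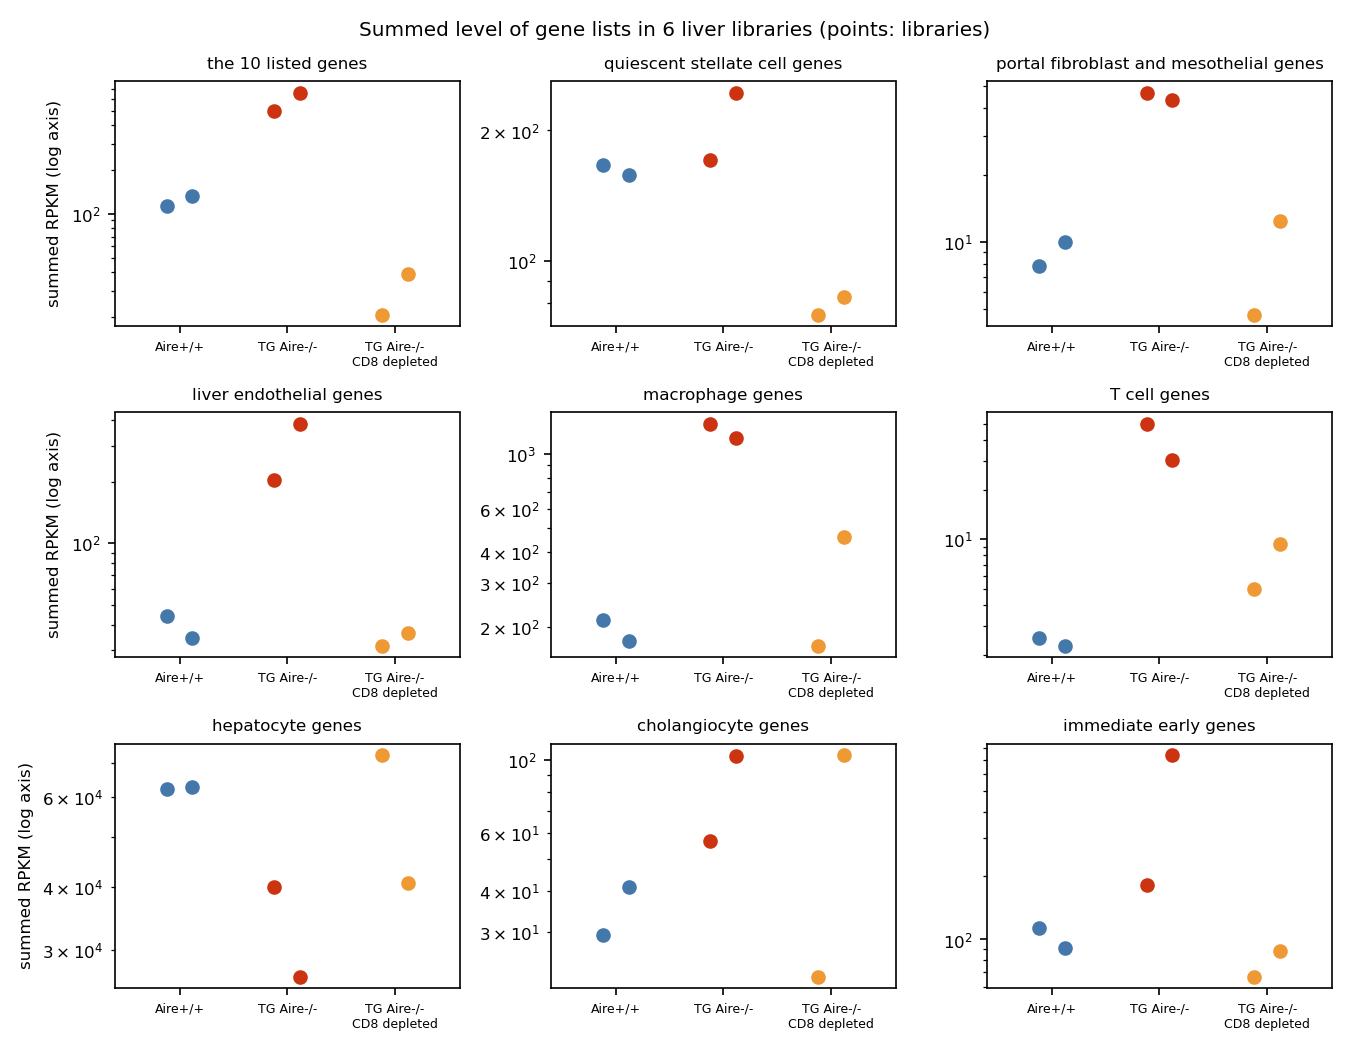
Summed RPKM (log axis) of the 10 genes and of 8 marker lists in each of the 6 liver libraries, 1 point per library. The TG Aire-/- points lie above the other 4 in every panel except hepatocyte genes, where they are lowest, and cholangiocyte genes, where CD8-depleted replicate 2 (104) is highest; the highest immediate early sum, 741, is that of TG Aire-/- replicate 2.

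In 2 of the 3 groups most of the 10 genes differed in a common direction between the libraries. In the CD8-depleted pair replicate 2 was higher than replicate 1 for 8 of the 9 genes with reads in both, by a median of 2.22-fold, and Lrat was the exception at 0.738-fold. In Aire+/+ replicate 2 was higher for 8 of 10, by a median of 1.30-fold. The TG Aire-/- pair had 4 genes higher in replicate 2, of which Lox (2.32-fold) and Pdgfrb (2.13-fold) differed most, and Eln was 0.482-fold.

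The genes whose pattern over the 6 livers was most like that of Acta2 were Orc6, G3bp1, Aunip, Chaf1a and Sptb, with Pearson correlations of log2(RPKM + 1) of 0.996 to 0.999. For Lrat they were Zfp866, Pitpnb, Tcf24, Arntl and Zbtb5, at 0.971 to 0.987. The 6 libraries fall into 3 groups of 2, so a high correlation of this kind says mostly that the group means are ordered alike. Orc6, a subunit of the origin recognition complex, was at 2.28 and 2.41 RPKM in Aire+/+, 6.41 and 5.52 in TG Aire-/- and 1.75 and 1.99 with depletion. Arntl, the clock transcription factor, was at 4.41 and 4.08, then 4.10 and 4.34, then 0.949 and 0.292 RPKM.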

How the data were processed

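RPKM values per gene were deposited by the authors, in 1 table for the second-batch livers and 1 for sorted CD8+ T cells; the submitters' processing notes name STAR 2.5.2b and mm10. For the annotation, the counting tool and the strand setting, nothing is stated in the labels or file headers. The labels' protocols name Illumina and BGI library preparation without saying which library had which. Depth was inferred from the steps between low values: 41.2% to 47.0% of low liver values were whole reads within 0.1 read, where chance gives 20%, so no count test was used.

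The 10 genes and the lists were chosen with earlier results of these data known. Here log2(RPKM + 1) was computed for genes with at least 1 RPKM in at least 2 of 6 libraries, and the 3 liver groups were fitted together with limma 3.58.1 in R 4.3.3 (lmFit, eBayes with an intensity trend, two-sided, no covariates, no further scaling). Benjamini-Hochberg adjustment ran over 12231 genes per comparison, with a threshold of 0.05. Genes that reached 1 RPKM in only 1 group entered through that group, so the filter helped set the counts of lists that hold such genes. Among them were also Plod2, Bambi, Nes, Krt7, Cd8a and Cd8b1, which reached it only in TG Aire-/-. The first 4 tested genes of each list are named, but for 1 quiescent stellate cell gene that is not reported here, with others chosen after their values were seen. Positions come from GENCODE for GRCm38, the assembly mm10 names, and promoter letters from RefSeq. On simulated data for TG Aire-/- against Aire+/+ (12231 genes, 200 of them changed) 4.40%, 58.0% and 91.5% of genes changed by 1, 2 and 4 log2 units were recovered, with 4.18% false calls. Alternatives were other pseudocounts, no filter, 2 scalings, no trend, 2 groups only, a replicate block, array weights, sex as a covariate, a minimum change and each library left out. Thymus samples and the 4 livers without a batch number were not analysed here.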

Additional observations from a re-analysis of the deposited data

Results flagged for a closer look

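Sorted liver CD8+ T cells, which entered no comparison, held reads of 3 of the 10 genes above the level of 3 reads in each of the 3 libraries (Aire-/-, TG Aire+/- and TG Aire-/-, 1 each), and this is what set them apart. Tagln stood at 3.41, 3.14 and 3.30 RPKM, between the lowest CD8-depleted and the highest Aire+/+ liver. Acta2 stood at 0.406, 0.195 and 0.221 RPKM and Sparc at 0.188, 0.138 and 0.0716. Pcsk7, which shares exonic bases with Tagln on the opposite strand, stood at 9.23, 10.3 and 6.07 RPKM in those libraries; its part in the Tagln value was not tested. Lrat and Eln were listed at 0 in all 3, and Lox, Timp1, Pdgfrb, Des and Mmp2 did not exceed 0.102 RPKM.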

How the results depend on the processing

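Acta2, Tagln and Lox kept their call in TG Aire-/- against Aire+/+, and these with Sparc, Pdgfrb, Des and Eln kept theirs with depletion, under all 17 alternatives. Of the 10 genes 7, 9 and 1 were called in TG Aire-/- against Aire+/+, CD8-depleted against TG Aire-/- and CD8-depleted against Aire+/+, and 4565, 4646 and 67 of all genes. Leaving out each library in turn gave 4 to 7, 7 to 9 and 0 of the 10 genes, and 1270 to 5102, 1294 to 4723 and 13 to 141 of all genes. A minimum change of 1 gave 3, 7 and 0 of the 10 and 532, 496 and 17 genes. For CD8-depleted against TG Aire-/-, median-ratio scaling gave 2952 genes, quantile normalization 2622 and the sex covariate 2945. For CD8-depleted against Aire+/+, the 10 gave 0 called without a filter, with only the 2 groups, with the replicate block and with the sex covariate, 2 with median-ratio scaling and 3 with array weights; all genes gave 17 without a filter, 17 with 2 groups, 16 with sex and 190 with array weights. The block on replicate numbers gave 7, 9 and 0 of the 10 genes, and Eln had a limma adjusted p of 0.0558 with the block. The labels do not say whether the numbers pair samples. Deviations of same-numbered libraries correlated at 0.29 (Aire+/+ with TG Aire-/-), -0.09 (Aire+/+ with CD8-depleted) and -0.15 (TG Aire-/- with CD8-depleted). Such values do not settle whether samples were paired. Reversed were Lrat with depletion under quantile normalization (0.16), and against Aire+/+ Lox under the sex covariate (0.093) and without Aire+/+ replicate 2 (0.017; -0.85 to 0.017 over the libraries left out) and Timp1 without CD8-depleted replicate 2 (-0.31; -0.31 to 1.32). Among other named genes, Efemp1 turned to -0.19 and -0.45 in TG Aire-/- under median-ratio scaling and quantile normalization (-0.073 to 0.63 over the libraries left out), Reln there ranged from -0.98 to 0.38 over those libraries, and Pdgfa with depletion turned to 0.12 and 0.29 under the 2 scalings and ranged from -2.02 to 1.18. In TG Aire-/- against Aire+/+, Rdh11 turned to -0.19 and -0.31, Cela1 to -0.33 and -0.47 and Clec4f to -0.32 under median-ratio scaling or, for the second value, quantile normalization, which also turned Pdgfd to -0.066, Epcam to -0.22 and Sox9 to -0.053. Over the libraries left out Clec4f ranged from -0.27 to 0.94 and Plin4 from -0.54 to 0.14. Cyp26a1, Mmp7, Fbln2, Notch3, Tnc, Krt7, Vil1 and Acta1 fell under the filter when either library of their higher group was left out. Apart from the smaller numbers of samples or genes that these settings use, the cause was not tested. At these depths Timp1 in Aire+/+ rests on fewer than 5 reads a library.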
